A study of Rattus norvegicus with 14 samples.

Results

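Transcripts of 7 GABA-A receptor subunit genes (Gabra2, Gabra3, Gabra4, Gabra5, Gabrb1, Gabrb2 and Gabrd) were measured by RNA-seq in rat hippocampal neurons and astrocytes given allopregnanolone (Allo) or vehicle. The 7 symbols were taken from the tables of normalized counts, which list 18239 genes for neurons and 31791 for astrocytes. The receptor is the direct target of Allo, and the comparison asks whether the genes of its subunits differed in level after treatment. The cells came from Sprague Dawley rat fetuses on embryonic day 18, and all groups were kept in the aging model medium (AM), in which supplements are reduced for neurons and serum is charcoal-stripped for astrocytes. Neurons on day 10 in culture were held in AM for 4 h and then given 100 nM Allo (AM-Allo) or 0.001% ethanol (AM-Veh) for 16 h, with 4 libraries in each group. Astrocytes, enriched by shaking from mixed glia, were held in AM for 24 h and then given the same dose or vehicle for 24 h, with 3 libraries in each group. Whether the libraries come from separate cultures is not given in the sources used here, so p-values measure the spread between libraries, which may be technical.

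The GABA-A receptor is a ring of subunits around a chloride channel that GABA opens, and most receptors join alpha and beta subunits to a gamma or a delta subunit. GABA binds between a beta and an alpha subunit, whereas Allo and related neurosteroids bind to the transmembrane part of the receptor and increase its current. Receptors with delta are known for strong responses to neurosteroids and lie mostly outside synapses. In immature hippocampal neurons the intracellular chloride concentration is high, so that an open receptor lets chloride out of the cell and depolarizes it.

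Promoter sequence was available for 6 of the 7 genes (all but Gabra2), as the 250 bases before the RefSeq start on the GRCr8 assembly. The following 3 were picked from a comparison taken up after the data were seen, within neuron libraries whose replicate number starts with 2. Gabrb1 and Gabrb2 had the largest differences among the 3 genes called there, and Gabra4 lies beside Gabrb1. Over all neuron libraries none of the 7 genes was called for Allo. Capitals mark the letters CGCATGCG, the core of the site of NRF1 (nuclear respiratory factor, a regulator of mitochondrial and neuronal genes), in Gabrb1 and Gabrb2, and the letters GCGNGGGCG, the site of the EGR family of activity-induced factors, in Gabra4.
Gabrb1 (chr14:36902894-36903143, minus strand): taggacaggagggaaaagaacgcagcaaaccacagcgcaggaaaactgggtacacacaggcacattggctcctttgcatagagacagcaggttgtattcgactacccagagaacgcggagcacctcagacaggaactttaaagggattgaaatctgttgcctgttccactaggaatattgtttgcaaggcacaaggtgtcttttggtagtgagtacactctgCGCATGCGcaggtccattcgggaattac
Gabrb2 (chr10:27439543-27439792, plus strand): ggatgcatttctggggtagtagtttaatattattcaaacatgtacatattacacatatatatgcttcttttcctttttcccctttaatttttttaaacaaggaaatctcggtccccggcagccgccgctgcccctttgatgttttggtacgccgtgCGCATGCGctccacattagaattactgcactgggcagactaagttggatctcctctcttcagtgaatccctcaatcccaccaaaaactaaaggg
Gabra4 (chr14:36944497-36944746, plus strand): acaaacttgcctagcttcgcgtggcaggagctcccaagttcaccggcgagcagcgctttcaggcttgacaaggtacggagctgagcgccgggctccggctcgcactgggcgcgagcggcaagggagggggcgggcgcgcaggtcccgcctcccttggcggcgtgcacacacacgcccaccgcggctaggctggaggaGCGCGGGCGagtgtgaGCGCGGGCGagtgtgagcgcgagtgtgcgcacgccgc

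The NRF1 core was searched for after these sequences had been seen, and it is its own reverse complement. It ended 21 bases before the start in Gabrb1 and 87 bases before it in Gabrb2, was absent from the windows of the other 4 genes, and occurred in 1.63% of the 27457 promoters searched. The EGR letters, read on both strands, occurred 2 times in Gabra4, in none of the other 5 windows and in 4.53% of all promoters. No window held TGACGTCA, the cyclic AMP response element bound by CREB (1.7% of all promoters), its shorter form TGACG (19.0%), which lies within it, or the E-box CACGTG (5.79%). The GC content was 71.6% in Gabra4, 76.4% in Gabra5 and 74.0% in Gabrd, against 49.2% in Gabrb1, 43.2% in Gabrb2, 40.4% in Gabra3 and a median of 52.0% over all promoters. These matches describe letters only, since binding was not measured.

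In neurons, all 7 genes passed the filter (a mean of at least 10 normalized counts over the 8 libraries), and none differed between AM-Allo and AM-Veh at an adjusted p under 0.05. The values below are normalized read counts per library in the order 1-1, 1-2, 2-1 and 2-2, the replicate numbers of the labels. Levels of different genes are not compared, because transcript lengths were not available. In bulk cultures, fewer cells of a type and less RNA per cell cannot be told apart.

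Among the alpha subunits, Gabra2, whose product is dense at synapses of the axon initial segment, had 2332, 2181, 2452 and 2342 in AM-Veh and 2155, 2362, 2776 and 2748 in AM-Allo. The AM-Allo libraries 2-1 and 2-2 were above all AM-Veh libraries and 1-1 was below them, so the groups overlapped (log2 fold change 0.10 ± 0.08 SE, limma adjusted p = 0.972). Gabra3, the alpha subunit typical of the developing brain, had 256, 253, 284 and 255 in AM-Veh and 304, 253, 324 and 368 in AM-Allo. Of the 4 AM-Allo libraries, 3 lay above all AM-Veh libraries. The log2 fold change was 0.24 ± 0.11 (SE; 95% interval 0.00 to 0.48), with a limma p of 0.0466 before and 0.865 after adjustment, and an exact two-sided permutation test gave p = 0.114, the smallest this design allows being 0.0286. Gabra4, the usual alpha partner of delta, had 765, 808, 757 and 631 in AM-Veh and 795, 759, 806 and 836 in AM-Allo. The lowest library was AM-Veh 2-2, and the other 7 lay close together (log2 fold change 0.12 ± 0.07 SE, limma adjusted p = 0.947). Gabra5, a mostly extrasynaptic subunit of hippocampal pyramidal cells, had 1539, 1161, 1341 and 1112 in AM-Veh and 1132, 1039, 1421 and 1340 in AM-Allo. Its groups overlapped, with AM-Veh 1-1 the highest and AM-Allo 1-2 the lowest neuron library (log2 fold change −0.06 ± 0.12 SE, limma adjusted p = 0.998).

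The beta subunits hold the main face of the GABA site. Gabrb1 had 422, 374, 317 and 289 in AM-Veh and 393, 407, 386 and 432 in AM-Allo. The AM-Allo libraries were close together, whereas AM-Veh 2-1 and 2-2 were the lowest of all 8 (log2 fold change 0.22 ± 0.11 SE, limma adjusted p = 0.880). Gabrb2 had 233, 199, 199 and 181 in AM-Veh and 181, 173, 275 and 266 in AM-Allo. Its AM-Allo libraries 2-1 and 2-2 were the highest of all 8, and 1-1 and 1-2 were at the low end of the AM-Veh range or under it (log2 fold change 0.11 ± 0.16 SE, limma adjusted p = 0.996). Gabrd, which encodes delta, was near the filter, with 18.9, 14.8, 24.03 and 13.1 in AM-Veh and 10.3, 7.01, 21.8 and 19.3 in AM-Allo. At this depth its log2 fold change of −0.36 ± 0.36 (SE; limma adjusted p = 0.995) had a 95% interval of −1.15 to 0.44, wider than that of any other of the 7 genes.

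**Figure D1:**
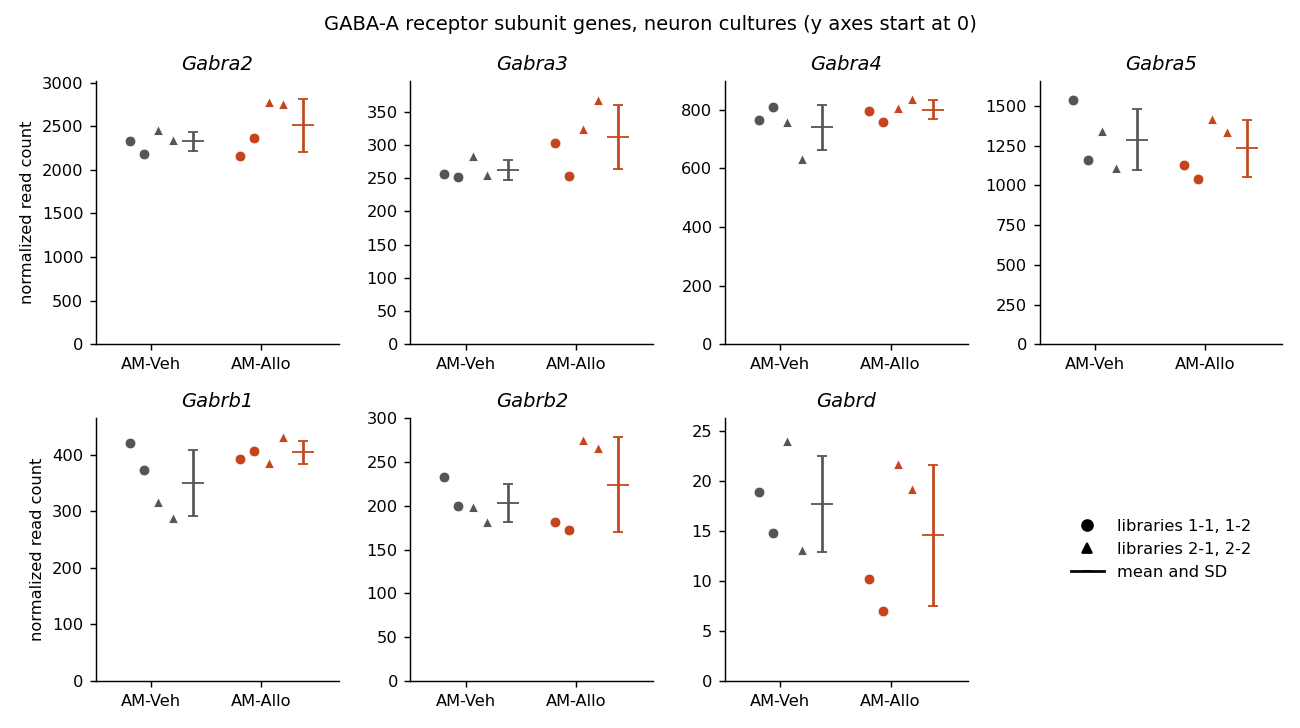
Normalized read count (y axis, from 0) of each subunit gene in every neuron library by treatment (x axis), with circles for libraries 1-1 and 1-2, triangles for 2-1 and 2-2, and the mean ± SD of the 4 libraries beside them. The groups overlap for all 7 genes, and in Gabrb2 the AM-Allo triangles (275 and 266) lie above all AM-Veh libraries and the AM-Allo circles (181 and 173) at the low end of their range or under it.

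At an unadjusted p under 0.05, 1 of the 7 genes (Gabra3) was counted, where 5.69% of the 15314 genes tested were, and after Benjamini-Hochberg adjustment 0 of 7, against 0.0261% (4 genes). The median log2 fold change of the 7 was 0.11, with 5 positive and 2 negative. The first part of the replicate number grouped the neuron libraries. With either the whole number or its first part as a block the unadjusted count was 3 (Gabra2, Gabra3 and Gabrb1), with 0 after adjustment. The share of all genes was larger under these blocks too, 10.7% and 11.0% at an unadjusted p and 0.607% and 0.679% after adjustment. Leaving out AM-Veh 1-2 or 2-2, or AM-Allo 2-1 or 2-2, each in turn, brought the unadjusted count to 0. No gene of the 7 had groups that did not overlap, as 3.95% of all genes tested did.

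The labels do not say what the first part of the replicate number stands for, and the libraries 1-x and 2-x differed in 17.2% of genes at an adjusted p under 0.05 and in 29.3% at an unadjusted one. Among the 7 subunit genes, Gabra2 rose in 2-x over 1-x by a log2 value of 0.19 ± 0.04 (SE; limma adjusted p = 0.0076). Gabra3 was also counted at an unadjusted p, with a log2 difference of 0.20 and a limma adjusted p of 0.123, and none of the remaining 5 was. Without AM-Veh 1-1 the adjusted count was 2, with Gabra5 beside Gabra2. The unadjusted count of 2 was 5 without AM-Veh 1-1 or AM-Veh 2-2 and 1 without AM-Veh 2-1. In the table of variance-stabilized values the difference between 1-x and 2-x was 0 for every gene tested, so that table cannot show it.

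The Allo effect itself was compared between the 2-x and the 1-x libraries with an interaction term. The log2 difference (2-x minus 1-x) was positive for all 7 genes, with a median of 0.42, and 5 of them had an unadjusted p under 0.05, where 9.53% of all genes did. None passed the adjustment, against 0.0784% of all genes (12). Gabrb2 had the largest value of the 5, 0.79 ± 0.17 (SE; limma adjusted p = 0.121), followed by Gabra5 with 0.48 ± 0.15 (limma adjusted p = 0.298). Gabrb1 had 0.42 ± 0.13, Gabra4 0.27 ± 0.11 and Gabra2 0.20 ± 0.07, with limma adjusted p-values of 0.319, 0.438 and 0.352. Gabrd (1.09 ± 0.58) and Gabra3 (0.23 ± 0.16) were not counted. Leaving out AM-Veh 1-2 brought Gabra5 to 0.68 and to a limma adjusted p of 0.0381, and without the variance trend only Gabrb1 and Gabrb2 were counted at an unadjusted p.

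Differences within 1-x and within 2-x came from a single fit of all 8 neuron libraries. Their SE and p-values thus rest on the spread pooled over both, not on that of 1-x or 2-x alone. Within the 1-x libraries, 2 of each treatment, no gene of the 7 passed the adjustment (0.17% of all genes did). At an unadjusted p under 0.05, 3 were counted (7.25% of all genes). These were the extrasynaptic subunits Gabra5 (log2 fold change −0.30) and Gabrd (−0.90) and the beta subunit Gabrb2 (−0.28), all lower in AM-Allo without overlap, as 38.6% of all genes were without overlap in one direction or the other. Without AM-Veh 1-1 or without AM-Allo 1-2 the count was 0. The values of the remaining 4 genes lay between −0.02 (Gabra4) and 0.12 (Gabra3).

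Within the 2-x libraries, in the same fit, Gabra2, Gabrb1 and Gabrb2 rose with Allo after adjustment (1.97% of all genes were called). Their log2 fold changes were 0.20 ± 0.05 for Gabra2, 0.43 ± 0.10 for Gabrb1 and 0.51 ± 0.12 for Gabrb2 (SE), with limma adjusted p-values of 0.0482, 0.0290 and 0.0378. With Gabra3 (0.36) and Gabra4 (0.25), 5 of the 7 had an unadjusted p under 0.05, against 13.6% of all genes, and these 5 were higher in both AM-Allo libraries than in both AM-Veh libraries, where 42.8% of all genes had no overlap. Gabra5 (0.18) and Gabrd (0.19) were not counted. Of 17 alternatives, Gabrb1 kept its call in 13, Gabrb2 in 10 and Gabra2 in 9. The 3 calls were lost together without AM-Veh 2-2, without AM-Allo 2-1 or without AM-Allo 2-2, fits in which the library left alone is assumed to vary like the others, and without the variance trend. Gabra2 also lost its call without AM-Veh 2-1, with no filter on low values and with upper-quartile or quantile scaling, and Gabrb2 when AM-Allo 1-1, AM-Allo 1-2 or AM-Veh 2-1 was left out. Without AM-Veh 2-2 the unadjusted count of 5 was 3. The split by first number was taken up after the interaction values were known.

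**Figure D2:**
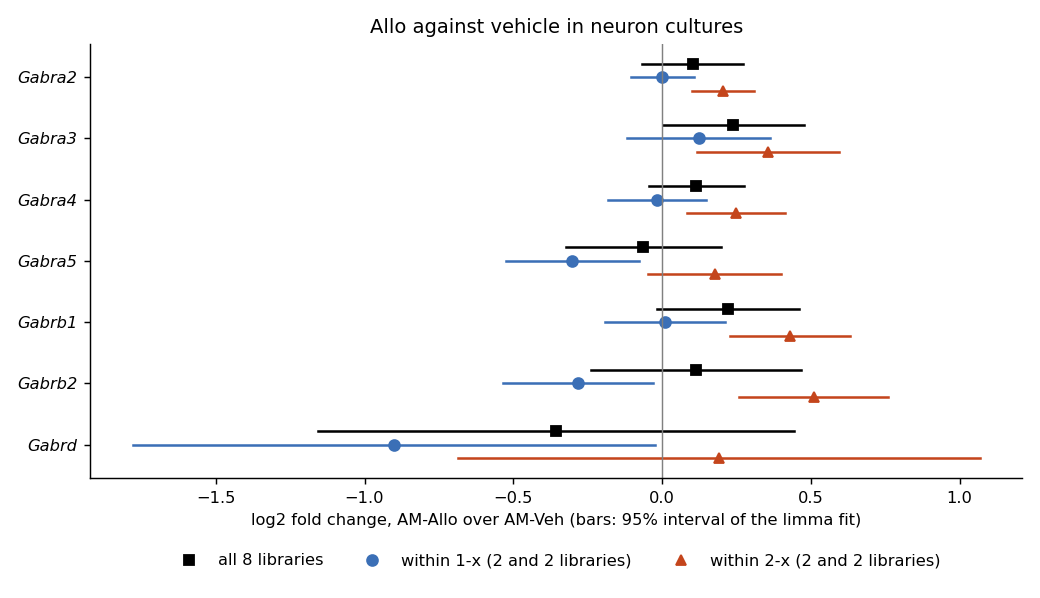
Log2 fold change of AM-Allo over AM-Veh (x axis) for each subunit gene (y axis) in all 8 neuron libraries (squares), within 1-x (circles) and within 2-x (triangles), with bars for the 95% interval of the limma fit. The triangle lies to the right of the circle for all 7 genes, by 0.79 for Gabrb2 and 0.20 for Gabra2. Circle and triangle lie farthest apart for Gabrd (−0.90 and 0.19), which also has the widest bars.

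Values of the same kind were found for markers of neurons. Over the 12 neuron markers tested (among them Map2, a dendritic protein, with 24729 normalized counts on average in AM-Veh, and Stmn2, a neuronal microtubule regulator, with 9470), the interaction value was positive for all 12, with a median of 0.30, of which 10 were counted before adjustment at 0.05 and 0 after it. Summed, these markers had 62348, 57873, 61244 and 56226 counts in AM-Veh and 60642, 58090, 67254 and 64995 in AM-Allo, so that the AM-Allo libraries 2-1 and 2-2 were the highest of all 8. The sum of the 7 subunit genes had the same highest libraries, 6011 in AM-Allo 2-1 and 6010 in AM-Allo 2-2 against 4824 to 5566 in the other 6. Within 1-x, 9 of the 12 neuron markers were lower in AM-Allo, 6 of them at an unadjusted p under 0.05, and 1 (Tubb3) was higher at that threshold. After adjustment 2 were called there, Gad1 and Gad2, both lower. Within 2-x, 9 were higher, and 5 of these (Map2, Slc17a7, Stmn2, Syn1 and Tubb3) passed both the unadjusted and the adjusted threshold. Another 2, Gad1 and Gad2, were lower within 2-x at an unadjusted p alone. Of the 9 astrocyte markers, 8 were lower in AM-Allo within 2-x, 3 of them at an unadjusted p (Gja1, Slc1a3 and S100b) and 0 after adjustment, and 5 were higher within 1-x. Their interaction value was negative for 7 of 9, with Gja1 and Slc1a3 counted at an unadjusted p. The part of these markers in the subunit values was not tested.

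**Figure D3:**
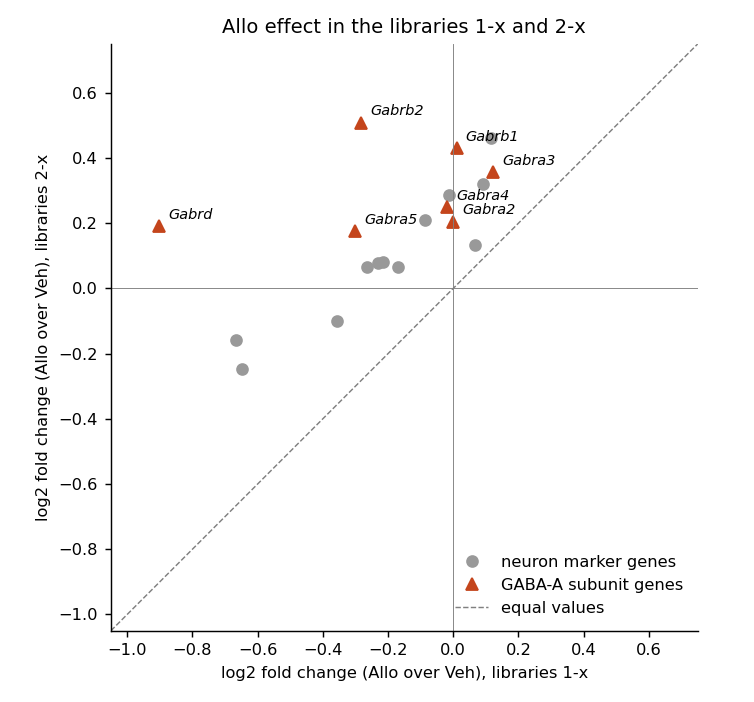
Log2 fold change of AM-Allo over AM-Veh within the 1-x libraries (x axis) and within the 2-x libraries (y axis) for the 7 subunit genes (triangles) and 12 neuron markers (circles), with a dashed line where both are equal. All 7 subunit genes and all 12 markers lie above the line, and Gabrb2 (−0.28 and 0.51) and Gabrd (−0.90 and 0.19) lie farthest from it.

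Markers of inhibitory neurons mostly had lower values with Allo across all libraries. Of 9 tested, 8 were lower in AM-Allo (median log2 fold change −0.45), 2 of them at an unadjusted p under 0.05 and 0 at an adjusted one. With either replicate block 6 were lower at an unadjusted p, and Gad1, Gad2 and Sst fell after adjustment. Sst, the peptide of an interneuron class, had a log2 fold change of −0.59 and Gad2, a GABA-synthesizing enzyme that also stands in the neuron list, one of −0.45. Their summed counts were 5086 to 6747 in AM-Veh and 3070 to 5726 in AM-Allo. Within 1-x, where Gabra5, Gabrb2 and Gabrd were lower, 8 of the 9 were also lower at an unadjusted p (Gad1, Gad2 and Sst after adjustment). Within 2-x, where 5 subunit genes were higher, 7 of the 9 were still lower, 3 of them at an unadjusted p (Gad1, Gad2 and Sst) and Sst also after adjustment (log2 fold change −0.44, limma adjusted p = 0.0363). The interaction value of this list was positive for 8 of 9, with 6 at an unadjusted p. The part of these cells in the subunit values was not tested.

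The cultures labelled neurons also held other cell types. Astrocyte markers, led by Gfap and Slc1a3, summed to 198968 to 258956 counts in the neuron libraries and to 239668 to 253760 in the astrocyte libraries. Neuron markers summed to 56226 to 67254 in the neuron libraries. Sums of different lists are not ranked, because they depend on the genes chosen and on transcript lengths. Counts of the neuron and astrocyte libraries were also normalized separately. Oligodendrocyte-lineage markers, led by Olig1 and Cnp in neurons, summed to 52475 to 60483 in neurons and 6534 to 6994 in astrocytes. Microglial markers (led by Cd68 and Tmem119 in neurons and by Csf1r and C1qa in astrocytes) summed to 92.6 to 165 and 1548 to 1931. The microglial sums cover 6 listed genes in neurons and 9 in astrocytes, as the others are absent from the neuron values. Mesenchymal markers, led by Pdgfrb and Col1a1 in neurons and by Col1a2 and Col1a1 in astrocytes, reached 67697 to 80940 in astrocytes and 666 to 2688 in neurons, and endothelial ones, led by Kdr, 517 to 623 and 37.3 to 126. The astrocyte libraries had 26716 to 28291 counts of neuron markers, mostly Stmn2 (21790 on average in AM-Veh), and inhibitory-neuron markers at 1890 to 2120, mostly Gad1, with Npy and the endothelial Cldn5 at 0. Only 6 of the 12 neuron markers and 3 of the 10 inhibitory-neuron markers reached a mean of 10 there. Whether the counts of Stmn2 and Gad1 in astrocyte libraries came from neurons was not tested. Reads on genes, estimated from the smallest step of the values, lay between 19600000 and 25100000 for neurons and between 22200000 and 28700000 for astrocytes.

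In astrocytes, Gabra2, Gabra3, Gabra4 and Gabra5 passed the filter and none differed between AM-Allo and AM-Veh after adjustment. Gabra5 had 75.5, 56.5 and 53.0 normalized counts in AM-Veh replicates 1, 2 and 3 and 53.1, 42.2 and 32.8 in AM-Allo. AM-Allo 2 and 3 lay below all AM-Veh libraries, and AM-Allo 1 overlapped with AM-Veh 3. Its log2 fold change was −0.53 ± 0.23 (SE; limma p = 0.0378 before adjustment, adjusted p = 0.692, exact permutation p = 0.20). The p before adjustment stayed under 0.05 in 12 of 16 alternatives. Those where it was over 0.05 included the fits without replicate 1 of AM-Veh or without replicate 2 or 3 of AM-Allo. Gabra5 was the 1 gene of the 4 counted at an unadjusted p, where 7.01% of the 15380 genes tested were, and 0 passed the adjustment, against 0.0065% (1 gene).

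Gabra2 had 53.3, 49.4 and 56.0 in AM-Veh astrocytes and 46.4, 48.9 and 47.2 in AM-Allo. All 3 AM-Allo libraries were below all AM-Veh libraries, as 12.5% of all genes tested had no overlap in one direction or the other, and the exact permutation p of 0.10 is the smallest that 3 against 3 allows (log2 fold change −0.15 ± 0.19 SE, limma adjusted p = 0.916). Gabra3 had 314, 346 and 370 in AM-Veh and 340, 274 and 314 in AM-Allo. The groups overlapped (log2 fold change −0.15 ± 0.10 SE, limma adjusted p = 0.811). Gabra4 had 19.3, 13.5 and 13.5 in AM-Veh and 18.1, 16.8 and 25.6 in AM-Allo, also with overlap (log2 fold change 0.36 ± 0.32 SE, limma adjusted p = 0.859). The other 3 genes were under the filter and were not tested. Gabrb1 had 4.18 to 10.4 in AM-Veh and 7.50 to 9.32 in AM-Allo. Gabrb2 was at 0 in 5 of the 6 libraries and at 1.04 in AM-Veh 2, and Gabrd at 0 in 5 of 6 and at 2.05 in AM-Allo 2, all below a floor of 3 counts per library.

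**Figure D4:**
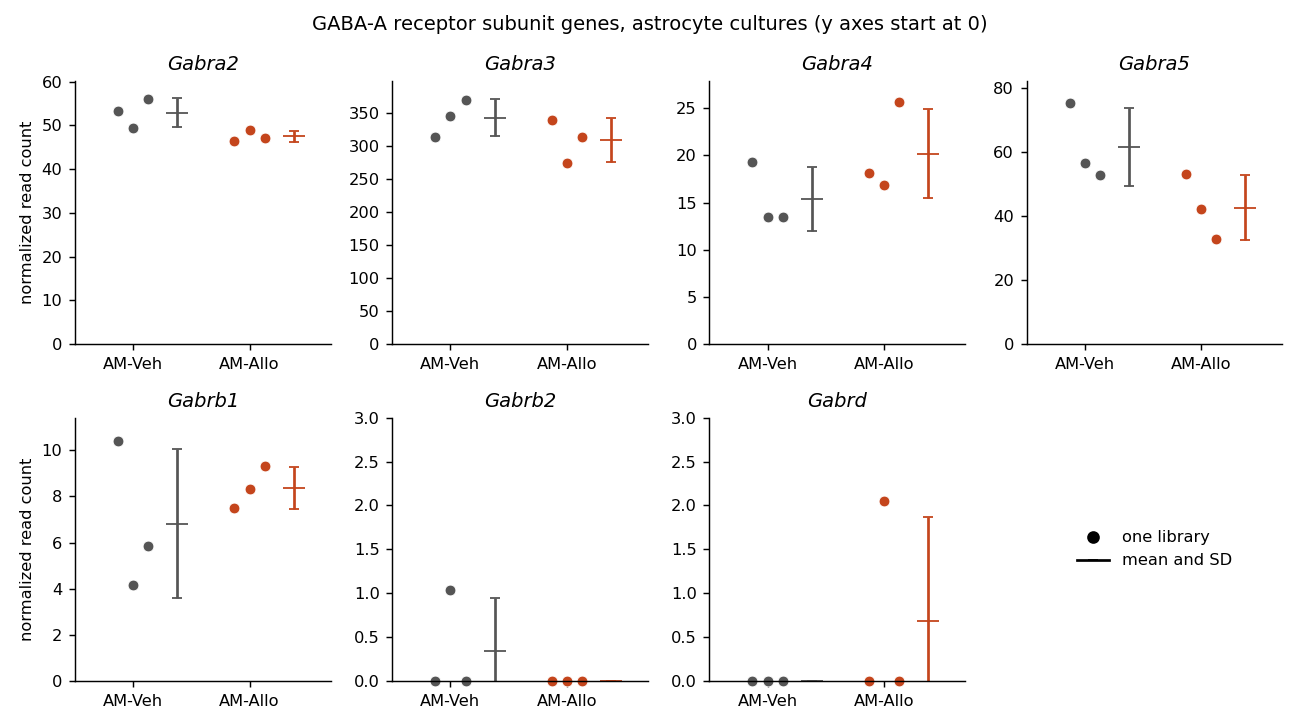
Normalized read count (y axis, from 0) of each subunit gene in every astrocyte library by treatment (x axis), with the mean ± SD of the 3 libraries beside them. Gabra2 is lower in the 3 AM-Allo libraries (46.4 to 48.9) than in the 3 AM-Veh libraries (49.4 to 56.0), whereas Gabrb2 and Gabrd are at 0 in all but 1 library each.

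The tables of neurons and astrocytes were normalized separately, so levels are set side by side per 1000000 normalized counts, with no test. In AM-Veh, Gabra2 had 105 ± 4.40 in neurons (SD, n = 4) and 2.21 ± 0.146 in astrocytes (SD, n = 3). Gabra4 (33.4 ± 3.65 and 0.646 ± 0.144), Gabra5 (58.2 ± 8.98 and 2.58 ± 0.516) and Gabrb1 (15.8 ± 2.80 and 0.286 ± 0.137) were likewise 22.5 to 55.4 times higher in neurons. Gabra3 was the exception, with 11.8 ± 0.610 in neurons and 14.4 ± 1.16 in astrocytes. Gabrb2 had 9.18 ± 1.04 in neurons against 1 astrocyte library above 0. Gabrd had 0.800 ± 0.216 in neurons and was at 0 in all AM-Veh astrocyte libraries, at least 6.37-fold higher in neurons when astrocytes are set at the floor of 3 counts per library. Outside the 7 genes, Gabre, which encodes the epsilon subunit, was higher in astrocytes, with 13.3 ± 2.52 against 1.397 ± 0.389 in neurons.

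Of 12 other GABA-A subunit genes, 7 passed the filter in neurons and 4 in astrocytes, and none had an unadjusted p under 0.05 for Allo in either. The median log2 fold change was −0.02 in neurons and 0.10 in astrocytes. Gabrq, which encodes theta, had −0.34 in neurons and 0.72 in astrocytes. It was near the filter, with 9.01 to 15.9 normalized counts per library in neurons and 6.83 to 16.1 in astrocytes. Gabre had 0.16 in neurons, and Gabrg1, which encodes the gamma 1 subunit, −0.46 in astrocytes. The interaction value in neurons was positive for 6 of these 7 other genes (median 0.10), 2 of them at an unadjusted p under 0.05 (9.53% of all genes). Within 1-x, 4 were lower with Allo, 2 of them at an unadjusted p (7.25% of all genes). Within 2-x, 4 were higher and 0 were counted at an unadjusted p (13.6% of all genes). After adjustment 0 were called in any of the 3 comparisons. In 2-x against 1-x neurons, Gabrg1 fell by a log2 value of 0.33 (limma adjusted p = 1.36e-05), and Gabre was lower by a log2 value of −0.57 (limma adjusted p = 0.0990). On GRCr8, Gabrb1 and Gabra4 are neighbours, followed by Cox7b2, Gabra2 and Gabrg1, so that Gabra2, which rose in 2-x, and Gabrg1, which fell, lie side by side.

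Of 22 genes whose products anchor, traffic or assemble the receptor, 19 were tested in neurons and 18 in astrocytes, with 0 adjusted calls for Allo in either. In neurons, Slitrk3, an adhesion protein of inhibitory synapses (log2 fold change 0.17), and Hap1, which helps return receptors to the surface (0.10), were higher at an unadjusted p under 0.05, and Iqsec3, a gephyrin-binding exchange factor (−0.23), was lower. Their limma adjusted p-values were 0.792, 0.792 and 0.650. In astrocytes 0 of the 18 had an unadjusted p under 0.05, and the largest differences were those of Trak2 (0.08) and Plcl2 (−0.05). The median was 0.01 in both cell types. In the interaction only Nsf, a fusion ATPase, was counted at an unadjusted p, with 0.16. In 2-x against 1-x, Gabarapl1 (log2 0.26) and Hap1 (0.09) rose and Lhfpl4 (−0.13) and Clptm1 (−0.09) fell, with limma adjusted p-values of 2.8e-05, 0.0416, 0.0378 and 0.0194. Rdx (0.09), Shisa7 (−0.09) and Plcl1 (−0.11) were counted at an unadjusted p alone.

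Of 5 genes of the GABA-B receptor, the G protein-coupled receptor for GABA, Gabbr1 and Gabbr2 were tested in neurons and had log2 fold changes of −0.02 and 0.05 with Allo. Gabbr1 had 0.06 in astrocytes, where it was the only one tested. None had an unadjusted p under 0.05 for Allo, and their interaction values were −0.01 and 0.07. In 2-x against 1-x neurons, Gabbr2 fell by a log2 value of 0.35, and Gabbr1 had 0.05 at an unadjusted p under 0.05.

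Over the 8 neuron libraries, the gene whose log2 values deviated from their mean most like each subunit gene was found by the root mean square of the difference, as a description with no test. For Gabra2 these were Sel1l3 (0.03) and Usp12 (0.04), against a deviation of 0.13 of Gabra2 itself. For Gabra3 they were Dmxl1 (0.05) and Grin2b, an NMDA receptor subunit (0.06), for Gabra4 Wdr44 (0.03) and a gene without a symbol (0.03), and for Gabra5 Lgi1 (0.05) and Kcna4, a potassium channel (0.06). For Gabrb1 they were LOC497940 (0.07) and Pcdh20, a protocadherin (0.07), for Gabrb2 Dlg2, a synaptic scaffold (0.07), and Trpv2 (0.09), and for Gabrd Il27ra (0.21) and Tmem71 (0.21). No subunit gene was among these genes for another, and the nearest among the 7 were Gabra4 and Gabrb1, at 0.12.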

How the data were processed

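RNA-seq values of 14 libraries were used, and the labels gave each its cell type, treatment and replicate. Per the labels and the study's methods, the authors prepared stranded libraries of polyadenylated RNA, estimated transcript counts with Salmon 0.14, summed them to genes and normalized them with DESeq2 1.18.1, the versions being those of the submitters' processing notes. The authors deposited this normalized signal (estimated gene counts divided by normalization factors) and, in a further table per cell type, values after a variance-stabilizing transformation (VST), which approximate log2. Whole reads could not be recovered, since only 60.8% to 84.9% of the low values in neurons and 43.0% to 80.9% in astrocytes were whole multiples of the step within 0.1, so no count test was used. A read was worth 0.875 to 1.14 normalized counts in neurons and 0.838 to 1.07 in astrocytes. No 2 libraries of a cell type held identical values.

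Values were taken to log2 after adding 1, which understates the change of low genes. Genes with a mean of at least 10 were fitted with limma 3.58.1 in R 4.3.3 (eBayes with a variance trend), 15314 in neurons and 15380 in astrocytes, with Benjamini-Hochberg adjustment over all genes tested. The fits were AM-Allo against AM-Veh in each cell type, the first part of the neuron replicate number, and its interaction with treatment. Differences within 1-x and within 2-x were taken from a fit of all 8 neuron libraries with a mean per treatment and first number. Their variance was pooled over both. The fitting code was tested on simulated data. Alternatives were pseudocounts of 0.5 and 5, no filter, a minimum mean of 50, VST values, other scalings, other variance models, blocks and each library left out. Exact two-sided permutation tests compared mean log2 values. The first part of the replicate number grouped the neuron libraries. Deviations from the group means correlated over genes at 0.229 to 0.296 between AM-Veh and AM-Allo libraries of the same number. With the first part alone in common they correlated at 0.185 to 0.236, and otherwise at −0.319 to −0.150. The ranges for the whole number and for the first part overlap, so a pairing by the whole number is less clear. The number did not pair the astrocyte libraries (−0.0070 to 0.0241).

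The members and gene lists were chosen with earlier results of these data known. Every member is named. From the other receptor lists the rule named genes with an unadjusted p under 0.05 in a comparison, otherwise the 2 with the largest change, from the marker lists the 2 most abundant, and for each member the 2 nearest patterns. Values of some further subunit genes are not reported here. Promoters are those of RefSeq on GRCr8, which need not be the annotation the authors counted on.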

Additional observations from a re-analysis of the deposited data

Results flagged for a closer look

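In neurons, 5 of the 7 subunit genes had an Allo effect that differed between the 2-x and the 1-x libraries. The interaction test counted them at an unadjusted p under 0.05, where 9.53% of all genes were counted. None was called after adjustment, against 0.0784% of all genes. Of the 12 neuron markers tested, 10 were counted at the same unadjusted threshold. The log2 differences (2-x minus 1-x) were 0.20 for Gabra2, 0.27 for Gabra4, 0.48 for Gabra5, 0.42 for Gabrb1 and 0.79 for Gabrb2. Gabrb2 and Gabra5 were lower with Allo in 1-x and higher in 2-x, whereas the values of Gabra2, Gabra4 and Gabrb1 in 1-x lay between −0.02 and 0.01.

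In AM-Veh neurons, the highest Gabra3 library (2-1, with 284 normalized counts) stood far from the other 3, which lay between 253 and 256. Its gap to the nearest library was 0.90 of the whole range, over the Dixon limit for 4 libraries. Of 14 groups checked in this way it was the only 1 over the limit, and chance alone passes it in about 1 of 20 groups.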

How the results depend on the processing

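The number of subunit genes with an adjusted p under 0.05 for Allo was 0 in neurons and 0 in astrocytes under every alternative run, the replicate blocks included. In 2-x against 1-x neurons the count was 1 (Gabra2), 0 with VST values, which carry no such difference by construction, 0 without the variance trend, and 1 to 2 with each library left out. For the interaction it was 0, and 0 to 1 with each library left out. Within 2-x it was 3, 0 without the variance trend, and 0 to 3 with each library left out. Within 1-x it was 0 throughout. The cause of these changes was not tested. In fits that left 1 library of a treatment within 1-x or 2-x, that library was assumed to vary like the others. The alternatives within 1-x and 2-x were added after the data were seen.

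At an unadjusted p under 0.05, the neuron count of 1 was 3 with VST values and with either replicate block, and 0 without the variance trend. The gene counted was not the same throughout. Of 19 alternatives, Gabra3 was counted in 12, Gabra2 in 4 and Gabrb1 in 4, and the other subunit genes in 0. The share of all genes moved as well, from 5.69% to 14.4% with VST values and to 10.7% and 11.0% with the blocks by whole and by first number. The pairing of the astrocyte libraries by number changed no count. In neurons a block takes up the difference between 1-x and 2-x. VST values hold none of that difference, so their fit spends no degree of freedom on it. The part of this in the counts was not tested. Depth limits Gabrd in neurons and Gabra4 in astrocytes, whose libraries hold 7.01 to 24.03 and 13.5 to 25.6 normalized counts, and Gabrb1, Gabrb2 and Gabrd could not be tested in astrocytes at the minimum mean of 10.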
